A study of Mus musculus with 18 samples.

Results

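BC051142 and 9 genes of antigen presentation by the major histocompatibility complex (MHC) were followed in eosinophils of the mouse small intestine. The set holds the class I genes H2-K1, H2-D1, B2m and Tap1, the class II genes H2-Aa, H2-Ab1, H2-Eb1, Cd74 and Ciita, and BC051142, which lies among the butyrophilin-like genes beside the class II genes on chromosome 17. These 10 of the 22708 genes of the deposited table were picked by name. BC051142 was picked by its values as well, because its rise in the samples labelled Ahr-KO over WT was the largest of all, so for that comparison the values of the 10 genes are given as a description without a test. Class I molecules show peptides from inside the cell to CD8 T cells, and are made of a heavy chain (H2-K1 or H2-D1) and beta-2 microglobulin (B2m), loaded with peptides that the transporter Tap1 helps to carry into the endoplasmic reticulum. Class II molecules show peptides from outside the cell to CD4 T cells. Their alpha and beta chains (H2-Aa with H2-Ab1; H2-Eb1 is a beta chain whose partner H2-Ea is not made in C57BL/6 mice) travel with the invariant chain Cd74, and Ciita is the coactivator that switches class II genes on, mostly in dendritic cells, macrophages and B cells.

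RNA was sequenced in bulk from cells sorted as live CD11b+MHC-II-SiglecF+SSChi eosinophils after enrichment with beads against CD11b, a gate that leaves out cells with MHC class II protein on their surface. The labels give 3 genotypes on the strain C57/BL6, wildtype (WT), Ahr-KO and Ahrr-KO, with 3 females and 3 males each (18 samples). Ahr encodes the aryl hydrocarbon receptor, a transcription factor switched on by ligands such as diet-derived indoles, and Ahrr encodes its repressor. According to the methods, mice compared in an experiment were of like sex and similar age. The Ahr-/- mice and their WT controls came from separate litters and cages, so that litter, housing and genotype cannot be told apart. The age of each mouse, the alleles of Ahr and Ahrr and the origin of the Ahrr-KO mice are not given in the sources used here. In bulk samples, fewer cells of a type and less RNA per cell cannot be told apart. Values are the deposited variance-stabilized expression on a log2 scale, with a count of 0 as its floor. For genes with few reads this scale shrinks differences, so that they come out below a log2 ratio.

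The targeted genes were read first, as a check of the labels. Ahr was 13.40 to 14.40 in WT (median 13.76), 14.15 to 14.67 in the samples labelled Ahr-KO (median 14.55) and 13.03 to 14.42 in those labelled Ahrr-KO (median 13.51). The Ahr transcript was thus not lower in the samples labelled Ahr-KO, and its difference from WT was 0.61 (standard error (SE) 0.19, limma adjusted p = 0.0557). Ahrr, itself a well-known target of AHR, was 9.79 to 10.39 in WT, at most 5.79 in the samples labelled Ahr-KO (0 to 10 reads) and 9.95 to 10.93 in those labelled Ahrr-KO. It was therefore not lower in the samples labelled Ahrr-KO, and with the allele not given, a count over the whole gene does not check either label. Cyp1b1 and Tiparp, 2 more known AHR targets named after their values were seen, lay at 5.24 to 5.57 and 9.42 to 10.16 in the samples labelled Ahr-KO, against 8.68 to 10.23 and 11.79 to 12.85 in WT and 9.27 to 10.45 and 11.40 to 13.26 in those labelled Ahrr-KO. Cyp1a1, also a known target, had 0 reads in every WT sample, so it could not show a fall. It had 0 to 6 reads in the samples labelled Ahr-KO and 0 to 28 in those labelled Ahrr-KO. According to the paper, Ahrr was also missing by qPCR from intestinal eosinophils of mice with Ahr deleted in eosinophils. All directions below rest on the labels.

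The total count per sample, recovered from the deposited values, was 3842977 to 8149200 in WT, 6581818 to 10284124 in the samples labelled Ahr-KO and 8788867 to 12046933 in those labelled Ahrr-KO, so low counts are least precise in WT. The third female library of WT (WT F3) and that of Ahr-KO (Ahr-KO F3) stood apart from the other 16. They had 2464 and 3014 genes without a read, whereas the others had 5472 to 7562. Of the markers of eosinophils, Siglecf, Ccr3, Il5ra and Itgam were read in every sample, with means of 2109, 11975, 2154 and 16899 normalized counts (reads scaled by the size factor of the library), whereas the granule genes Epx and Ear6 had WT means of 10.9 and 0.344.

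BC051142 was low in every WT sample and in every sample labelled Ahrr-KO, and high in every sample labelled Ahr-KO. The gene (Entrez identifier 407788), also called Tsbp1 for a basic protein expressed in testis, spans 34398767 to 34460734 of chromosome 17 in GRCm38. In WT it was between 6.80 and 7.24 (median 7.01; 36 to 68 reads), in the samples labelled Ahr-KO between 8.94 and 10 (median 9.82; 454 to 1103 reads) and in those labelled Ahrr-KO between 6.06 and 6.99 (median 6.76; 21 to 93 reads). The values of Ahr-KO did not overlap with those of WT, with a difference of 2.56 that was rank 1 of 11346 genes tested, ahead of Cd34 with 2.40. The mean normalized count of 6 samples was 72.9 (SD 15.6) in WT, 47.8 (SD 18.9) in Ahrr-KO and 730 (SD 235) in Ahr-KO, which is 10 times that of WT. Within the samples labelled Ahr-KO, F2 and F3 were lowest (8.96 and 8.94), and the other 4 lay between 9.81 and 10. Without the 2 libraries that stood apart the difference was 2.73. Markers of male germ cells were at or near 0, with sums over 6 genes of the list of 0 to 24.8 normalized counts in WT, 1.52 to 7.97 in the samples labelled Ahr-KO and 0 to 3.70 in those labelled Ahrr-KO, and Ddx4 the most abundant among them.

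The sequence just around the annotated start of BC051142 is shown because the gene carries the largest rise. It is the RefSeq window from 250 bases before to 50 after a start at 34398820, which lies 53 bases inside the span given above, on the plus strand of GRCm38.p6 at chr17:34398570-34398869, and capitals mark its match to CCAAT on the minus strand (ATTGG), the letters that the factor NF-Y binds.
BC051142: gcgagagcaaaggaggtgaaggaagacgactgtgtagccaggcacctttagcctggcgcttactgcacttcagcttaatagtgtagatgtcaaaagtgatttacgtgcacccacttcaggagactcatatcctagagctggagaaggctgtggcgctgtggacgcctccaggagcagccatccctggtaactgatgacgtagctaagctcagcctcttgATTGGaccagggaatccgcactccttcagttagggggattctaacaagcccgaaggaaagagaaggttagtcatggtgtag
Windows were matched for 7 of the 10 genes (B2m, BC051142, H2-Aa, H2-D1, H2-Eb1, H2-K1 and Tap1) and searched on both strands for 3 short motifs. Cd74 was left out before the matching, whereas H2-Ab1 and Ciita had no window in the source used. The counts of motifs therefore cover these 7 genes only, and Cd74 was not searched. With positions counted from 1 at the start and -1 for the base before it, ATTGG began at -31 in BC051142. GCGTG, the core of the element that AHR binds, was not among the letters of this window, and was found in 3 of 7 windows (H2-K1, H2-D1 and Tap1), as in 32.4% of all 32851 windows of 300 bases. CCAAT was in 7 of 7, as in 37.4% of all windows, and 2 copies of GAAA with 2 bases between them, a form of the interferon response element, were in 1 of 7 (B2m), as in 3.44%. These matches describe letters only.

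**Figure D1:**
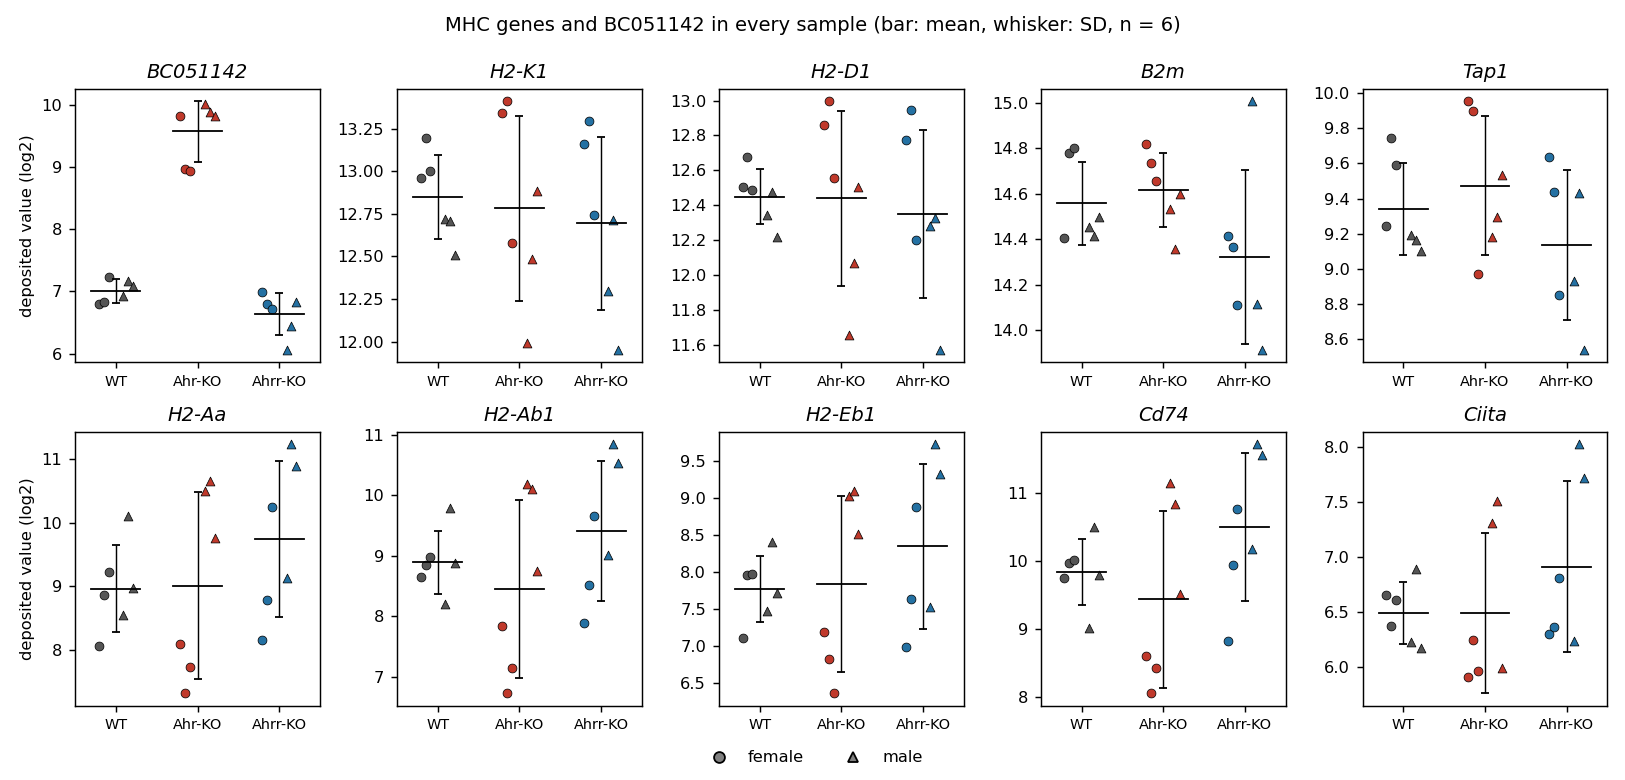
Deposited value (log2) of each of the 10 genes in the 18 samples, by labelled genotype, with circles for females and triangles for males, a bar for the mean and a whisker for the SD (n = 6). BC051142 lies at 8.94 to 10 in the samples labelled Ahr-KO and at 6.06 to 7.24 in all others, whereas the other 9 genes overlap between the groups.

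BC051142 was picked as the largest rise of all in Ahr-KO over WT, so no gene around it could rise as much. The lowest difference among the tested genes around it was -0.69 (Notch4). Within 500 kb on either side 69 genes had a row, 5 of them genes of the set, and of the 43 others that were tested 8 passed limma's adjusted p of 0.05 between Ahr-KO and WT (6 higher and 2 lower; 13 at an unadjusted p under 0.05), beside 8.84% of all genes tested. H2-Oa, which restrains peptide exchange on class II molecules, was higher by 0.68 (SE 0.12, adjusted p = 0.00234). Its mean was 5.86 in WT (3 to 19 reads) and 6.54 in Ahr-KO, so it reached the minimum mean for a test only through Ahr-KO. C4a, a complement component, was higher by 0.68 (SE 0.14, adjusted p = 0.00568). Rps18, a ribosomal protein gene, was higher by 0.48, Neu1, a lysosomal sialidase, by 0.47, Nelfe, of the negative elongation factor, by 0.45, and Ehmt2, a histone methyltransferase, by 0.45. The Notch receptor gene Notch4 differed by -0.69 (SE 0.13, adjusted p = 0.00242) and the butyrophilin-like gene Btnl2 by -0.47 (SE 0.13, adjusted p = 0.0384). Btnl2, at 6.44 in WT and 5.97 in Ahr-KO, reached the minimum mean only through WT. Each of the 8 showed its direction in 6 of 6 samples labelled Ahr-KO against the WT median. In the samples labelled Ahrr-KO, 0 of 41 neighbours tested were called by limma (1 at an unadjusted p under 0.05), beside 0.0779% of all genes.

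The nearest neighbours of BC051142 were on the side of the class II genes Btnl1 (12.6 kb away), Btnl2 (29.3 kb) and H2-Ea (54.1 kb), and on the other side Btnl4 (7.68 kb), Btnl5-ps (26.7 kb) and Btnl6 (47.1 kb). The Btnl genes encode relatives of butyrophilins that regulate T cells in the gut. Against WT, the samples labelled Ahr-KO differed by -0.18 in Btnl1 (adjusted p = 0.592), by -0.35 in Btnl5-ps (adjusted p = 0.146) and by -0.38 in Btnl6 (adjusted p = 0.208), none of them called by limma. Btnl4, at 6.12 in WT and 5.81 in Ahr-KO, was under the minimum mean for a test, and H2-Ea had no read in any sample but WT F3 (3 reads) and Ahrr-KO F2 (1 read). Btnl2, Btnl4, Btnl5-ps and Btnl6 lay below the WT median in 6 of 6 samples labelled Ahr-KO, and Btnl1 in 3 of 6. The GENCODE annotation also places the pseudogene Gm15320 on the opposite strand over 3199 bases of BC051142. The use of strand in counting is not given, so reads of the pair cannot be told apart.

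Among the neighbours called, Notch4, C4a and H2-Oa passed in all 12 fits that left out 1 library each. Btnl2 was not called without WT F1, F3, M2 or M3 or without Ahr-KO F2, F3, M1 or M3 (adjusted p 0.0607 to 0.102), and Neu1 not without WT F1, F3, M2 or M3 or without Ahr-KO F1, F2, F3 or M3 (0.0501 to 0.101). Ehmt2 was not called without WT F3, M1 or M3 or without Ahr-KO F1, F2, F3, M1 or M3 (0.0526 to 0.0895), and Nelfe not without WT F3 or without Ahr-KO F1, F2 or M3 (0.0533 to 0.0688). Rps18 was not called without WT F2, F3, M1 or M2 or without Ahr-KO F1, F2, F3, M1 or M3 (0.0695 to 0.102). None of these 5 was called with all 18 samples in 1 fit or without both F3 libraries (for the latter, adjusted p 0.0633 for Nelfe to 0.173 for Rps18). Ehmt2, Neu1, Btnl2 and Rps18 were also lost with no minimum mean, Ehmt2 with the replicate block, Neu1 and Rps18 without covariate, Rps18 with quantile normalization and Btnl2 on log2 of the count plus 1.

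**Figure D2:**
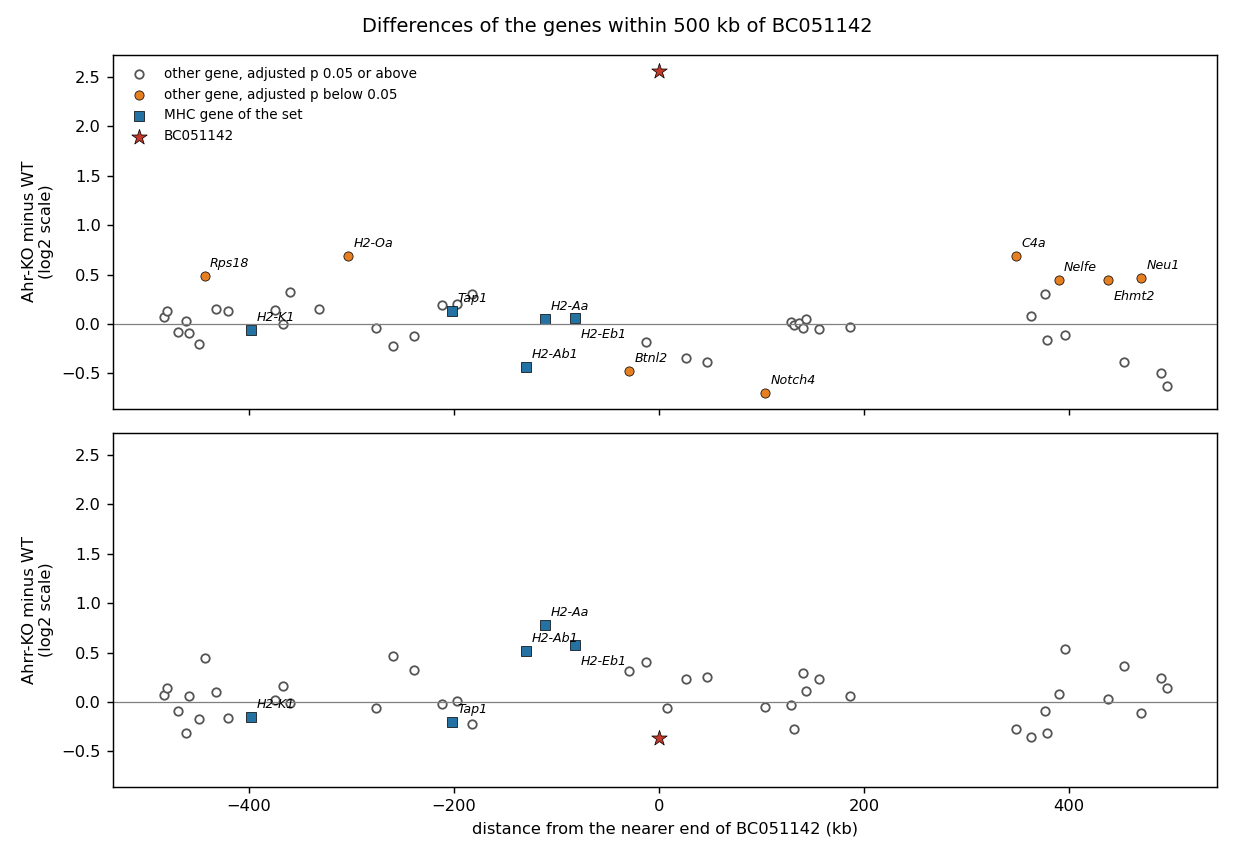
Difference from WT (log2 scale, limma) of each tested gene within 500 kb of BC051142 against its distance (kb), above for the samples labelled Ahr-KO and below for those labelled Ahrr-KO. The star is BC051142 (2.56 above, -0.37 below), squares are MHC genes of the set, and filled circles are the 8 other genes with an adjusted p below 0.05, all between -0.69 and 0.68.

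Of 11468 genes compared over the 18 samples, those most like BC051142 in their deposited values were Gm16897 (Pearson r = 0.94), Kidins220, a scaffold of neurotrophin receptors (0.94), Cd1d1 (0.93), Rims3 (0.93) and Tgfb2, a transforming growth factor (0.92). These correlations follow the step between the genotypes that BC051142 was picked for. With each genotype mean taken off, the closest genes were Dnajc2 (0.80), Wdr33 (0.78), Dcp2 (0.76), 9130015A21Rik (0.75) and Med1 (0.75). Within genotypes, BC051142 correlated with the other 9 genes of the set at r of -0.40 to 0.49, lowest with B2m and highest with H2-Eb1.

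Class I genes were abundant in all 3 groups and lay at nearly the same level in each. H2-K1 was 12.51 to 13.20 in WT (median 12.84), 11.99 to 13.41 in the samples labelled Ahr-KO (median 12.73) and 11.95 to 13.30 in those labelled Ahrr-KO (median 12.73). H2-D1 was 12.22 to 12.68 (median 12.48), 11.66 to 13.00 (median 12.53) and 11.57 to 12.94 (median 12.30) in the same order. Both heavy chains thus had overlapping groups and a wider spread in the samples labelled Ahr-KO and Ahrr-KO, with SDs of 0.54 and 0.51 for H2-K1 against 0.25 in WT (n = 6 each). B2m was 14.41 to 14.80 (median 14.48), 14.36 to 14.82 (median 14.63) and 13.91 to 15.01 (median 14.24), and Tap1 was 9.10 to 9.75 (median 9.22), 8.97 to 9.95 (median 9.42) and 8.54 to 9.64 (median 9.18). The lowest value of all 4 genes was in Ahrr-KO M3. Reads of the class I heavy chain genes may be shared among relatives of similar sequence. B2m overlaps Patl2 and Tap1 overlaps Psmb9 on the opposite strand, so the levels of all 4 genes are uncertain to that extent.

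For the class I genes the Ahr-KO minus WT differences, described without a test, were -0.06 for H2-K1, -0.01 for H2-D1, 0.06 for B2m and 0.13 for Tap1. Those of H2-K1, H2-D1 and B2m lay on either side of 0 among the alternatives (-0.15 to 0.05, -0.08 to 0.11 and -0.16 to 0.10). Against the SDs within groups, which were 0.26 for B2m to 0.45 for H2-K1, these are small. Between the genes, H2-K1 and H2-D1 went together over samples with r = 0.94 after genotype means were taken off, Tap1 went with them at 0.86 and 0.77, and B2m less so at 0.31 and 0.47. The window around the start of H2-D1, on the plus strand at chr17:35262844-35263143, is shown for its matches to GCGTG on the minus strand, which begin at -17 and 41. Its matches to CCAAT begin at -53 on the plus strand and at -76 on the minus strand, and all 4 are in capitals.
H2-D1: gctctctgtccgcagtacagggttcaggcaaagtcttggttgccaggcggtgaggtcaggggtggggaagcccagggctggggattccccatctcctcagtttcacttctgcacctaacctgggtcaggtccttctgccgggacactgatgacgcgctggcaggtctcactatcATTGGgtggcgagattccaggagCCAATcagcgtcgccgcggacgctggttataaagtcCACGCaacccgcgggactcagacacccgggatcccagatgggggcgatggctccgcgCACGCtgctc

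The genes whose pattern over the 18 samples was most like the mean of H2-K1, H2-D1 and B2m were Ubl3 (r = 0.92), the transcription factor Bhlhe40 (0.91), Dennd5a (0.91), Bsdc1 (0.90) and Ier5 (0.90). With genotype means taken off they were Ptafr, the receptor for platelet-activating factor (0.94), Bhlhe40 (0.93), Tgfbi (0.93), Ubl3 (0.93) and Slc16a3, a lactate transporter (0.93). All 20 pairs of a class I and a class II gene had a negative r within genotypes, from -0.77 for H2-D1 with H2-Ab1 to -0.27 for Tap1 with H2-Eb1. Sex was left in these values, and with the mean of each sex within each genotype taken off, 19 of 20 were negative, from -0.76 for B2m with Ciita to 0.00956 for Tap1 with H2-Eb1.

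**Figure D3:**
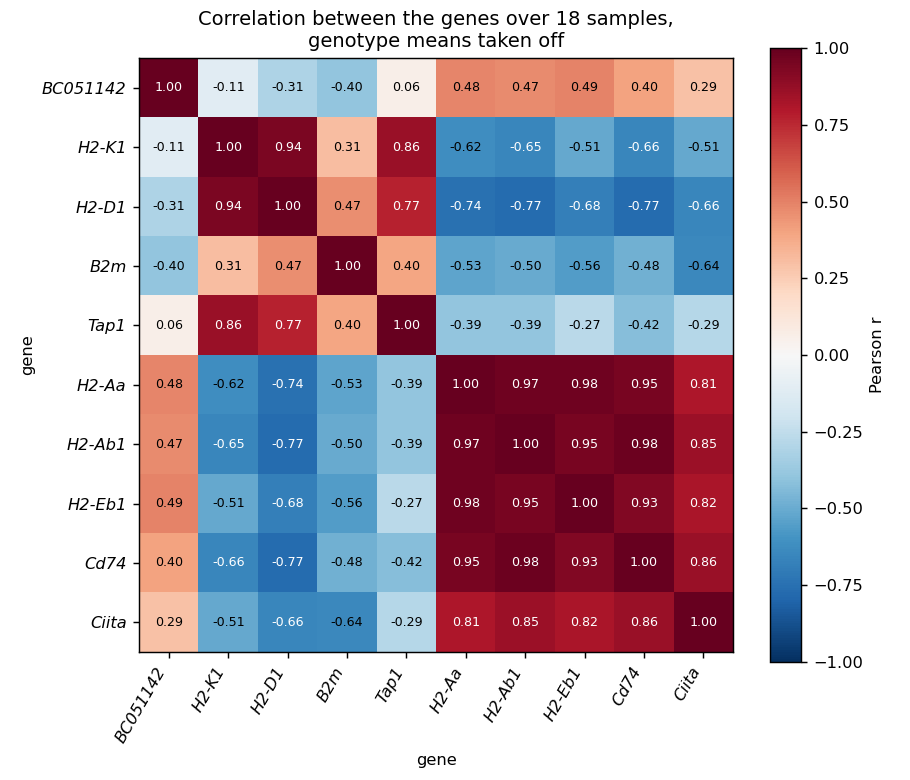
Pearson r between the 10 genes over 18 samples after the mean of each labelled genotype was taken off, with red for positive and blue for negative r. The 5 class II genes form a block with r of 0.81 to 0.98, H2-K1, H2-D1 and Tap1 one with 0.77 to 0.94, and the r between class I and class II are all below 0.

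Class II transcripts were read in every sample even though the gate left out cells with class II protein, and within groups they varied more between samples than the other genes of the set. Over the 18 samples the normalized count of H2-Ab1 spanned a ratio of 34.5 between the lowest and the highest sample, that of H2-Eb1 25.9, of Cd74 16.1 and of Ciita 15.8. For the class I genes the ratio was 2.14 for B2m to 2.99 for Tap1, and for BC051142, with its step between genotypes, it was 54.7. The SD within groups was 0.64 for Ciita to 1.18 for H2-Aa, against a median of 0.27 over 11468 genes.

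H2-Aa was 8.06 to 9.23 in 5 WT samples and higher in WT M2 (median 8.93; 174 to 811 reads), 7.32 to 10.66 in the samples labelled Ahr-KO (median 8.93) and 8.16 to 11.23 in those labelled Ahrr-KO (median 9.69). H2-Ab1 was 8.21 to 9.79 (median 8.87), 6.73 to 10.19 (median 8.29) and 7.90 to 10.84 (median 9.34) in the same order. The groups overlapped for both genes, with the lowest values in the females of Ahr-KO and the highest in Ahrr-KO M2. H2-Eb1 was 7.11 to 8.40 (median 7.84), 6.36 to 9.09 (median 7.85) and 6.99 to 9.72 (median 8.26), and Cd74 was 9.01 to 10.49 (median 9.88), 8.05 to 11.15 (median 9.06) and 8.82 to 11.72 (median 10.48). Ciita was 6.16 to 6.89 (median 6.49; 18 to 49 reads), 5.90 to 7.51 (median 6.12; 15 to 131 reads) and 6.23 to 8.02 (median 6.59; 28 to 245 reads). In each of the 5 genes the widest groups were Ahr-KO and Ahrr-KO and the narrowest was WT. The Ahr-KO minus WT differences, described without a test, were 0.05 for H2-Aa, -0.44 for H2-Ab1, 0.06 for H2-Eb1 and -0.41 for Cd74, each smaller than the SD within groups. Among the alternatives H2-Aa (-0.22 to 0.36), H2-Eb1 (-0.13 to 0.40) and Ciita (-0.19 to 0.15) lay on either side of 0, while H2-Ab1 (-0.73 to -0.16) and Cd74 (-0.70 to -0.17) did not.

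The samples labelled Ahr-KO were split by sex in these genes. H2-Aa was 8.10, 7.32 and 7.74 in the 3 females and 10.49, 10.66 and 9.76 in the 3 males, a mean normalized count of 156 against 1246, or 7.97 times as much in males. H2-Ab1 was 6.73 to 7.84 in females and 8.74 to 10.19 in males (8.21 times), and H2-Eb1 was 7.19, 6.83 and 6.36 in females and 9.03, 9.09 and 8.51 in males (7.08 times). No value of the females reached those of the males in H2-Aa, H2-Ab1, H2-Eb1 or Cd74 (5.72 times), whereas the sexes overlapped in Ciita, with 5.90 to 6.24 in females and 5.99 to 7.51 in males. The macrophage marker C1qb was split in the same way in these samples, with 8 to 53 reads in females and 136 to 153 in males, as was the mean of the macrophage list, at 7.21 to 7.98 and 8.09 to 8.40, and their part in the split was not tested. In WT the sexes overlapped in all 5 genes, with female minus male differences of -0.49 to 0.15. In the samples labelled Ahrr-KO they overlapped too, with female minus male differences of -1.44 for H2-Ab1 to -0.83 for Ciita, and F3, M2 and M3 were the highest of the 6 for each of the 5 genes. Sexes did not overlap for 6 of the 10 genes in Ahr-KO (H2-D1, B2m, H2-Aa, H2-Ab1, H2-Eb1 and Cd74), beside 23.8% of 11468 genes, for 3 in WT (H2-K1, H2-D1 and Tap1), beside 8.92%, and for 1 in Ahrr-KO (H2-K1), beside 11.5%.

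Whether the effect of genotype differed by sex was tested with the interaction term in limma. For Ahr-KO, 0 of 11346 genes were called (0%), with 533 at an unadjusted p under 0.05, and 0 of the 10 genes of the set, with 5 at an unadjusted p under 0.05. The interaction was -2.10 (SE 0.52) for H2-Aa, -2.30 (SE 0.56) for H2-Ab1, -1.90 (SE 0.41) for H2-Eb1, -2.29 (SE 0.53) for Cd74 and -1.02 (SE 0.45) for Ciita, all with an adjusted p of 0.954 from limma. The difference between the sex split of the class II genes in Ahr-KO and that in WT therefore did not pass the correction over all genes. The split within Ahr-KO alone was not tested. For H2-Ab1, the Ahr-KO minus WT difference was -1.59 in females and 0.71 in males, and for Cd74 it was -1.55 and 0.74. For Ahrr-KO, 0 of 11546 genes were called (0%), with 544 at an unadjusted p under 0.05, and 0 of the 10 genes, with 0 at an unadjusted p under 0.05.

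The class II genes moved as a block. Within genotypes their pairs had r of 0.81 (H2-Aa with Ciita) to 0.98 (H2-Aa with H2-Eb1, H2-Ab1 with Cd74). The windows around the starts of H2-Aa (minus strand, chr17:34287774-34288073) and H2-Eb1 (plus strand, chr17:34305617-34305916) are shown as a pair that moved together, with capitals for CCAAT on either strand (at -48 in H2-Aa, at -59 and -35 in H2-Eb1). The box of these letters is a known element of class II promoters.
H2-Aa: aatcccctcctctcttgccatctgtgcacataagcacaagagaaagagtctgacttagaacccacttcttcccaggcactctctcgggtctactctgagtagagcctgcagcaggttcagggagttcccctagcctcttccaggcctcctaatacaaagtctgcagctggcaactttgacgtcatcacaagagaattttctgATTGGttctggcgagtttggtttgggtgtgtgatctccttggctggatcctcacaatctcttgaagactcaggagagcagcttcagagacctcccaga
H2-Eb1: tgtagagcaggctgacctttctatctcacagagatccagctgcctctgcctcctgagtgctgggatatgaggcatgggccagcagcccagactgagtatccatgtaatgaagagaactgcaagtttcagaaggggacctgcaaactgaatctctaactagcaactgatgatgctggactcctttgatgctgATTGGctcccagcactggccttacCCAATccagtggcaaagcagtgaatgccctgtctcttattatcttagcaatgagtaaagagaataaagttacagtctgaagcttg
Among the genes most like the mean of H2-Aa, H2-Ab1, H2-Eb1 and Cd74 over 18 samples were H2-DMb1, a chain of the peptide exchanger H2-DM (r = 0.93), Ifi203 (0.87), Dab2 (0.87) and Ciita (0.86). With genotype means taken off they included H2-DMb1 (0.93), Dab2 (0.93), Ifi203 (0.88) and the chemokine Cxcl9 (0.87). H2-Eb1 overlaps Gm20513 and Ciita overlaps Dexi on the opposite strand, and reads of these pairs cannot be told apart.

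Some markers of other cells of the gut went with these genes. The mean of 7 markers of macrophages and monocytes, a list of 9 genes that all had a row and none of which was at 0 in all samples, had r = 0.77 with the class II mean over 18 samples (Spearman rho = 0.73), 0.82 without the 2 samples farthest from the median and 0.75 with genotype means taken off. Singly, 7 of the 9 genes had a positive r with the class II mean, among them Mrc1 (0.83), C1qb (0.77), C1qa (0.75) and C1qc (0.71), and 2 had a negative r, Adgre1 (-0.49) and Csf1r (-0.47). These genes were named after their values were seen. The summed list was led by Adgre1, which eosinophils also express (mean 7305 normalized counts), and was 7006 to 10328 in WT (median 9210), 8451 to 9266 in the samples labelled Ahr-KO (median 8494) and 4509 to 10515 in those labelled Ahrr-KO (median 7937). In the mean of log2 values the less abundant genes weigh as much as Adgre1, such as C1qb with means of 55.9, 79.8 and 212 normalized counts in WT, Ahr-KO and Ahrr-KO. For the class II mean, r was 0.55 with the list of dendritic cells (rho = 0.60), 0.53 with enterocytes (0.58), 0.47 with B and plasma cells (0.56), 0.44 with fibroblasts and endothelial cells (0.48), -0.03 with neutrophils (0.15) and -0.53 with eosinophils (-0.46). Without the 2 farthest samples of each list these r were 0.56, 0.50, 0.73, 0.16, 0.22 and -0.28 in the same order, and with genotype means taken off they were 0.72, 0.44, 0.35, 0.30, -0.48 and -0.53. In WT alone (n = 6) they were 0.42, -0.30, 0.69, 0.23, -0.22 and 0.45, so those with enterocytes and eosinophils turned sign. Macrophages, dendritic cells and B cells carry class II protein, which the gate was set to remove, and the part of these cells in the class II values was not tested.

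The dendritic cell list summed to 46.3 to 184 normalized counts in WT (median 77.1), 62.3 to 171 in Ahr-KO (median 109) and 42.7 to 120 in Ahrr-KO (median 83.1), led by Itgae. The list of B and plasma cells summed to 235 to 1775 in WT (median 570), 111 to 749 in Ahr-KO (median 288) and 334 to 6045 in Ahrr-KO (median 3902), led by Jchain. For the mean of the 3 class I genes, r was -0.71 with enterocytes (rho = -0.79; -0.68 without the 2 farthest samples; -0.71 with genotype means taken off), 0.62 with eosinophils (0.54), -0.57 with macrophages and monocytes (-0.56), -0.49 with dendritic cells (-0.43), -0.48 with fibroblasts and endothelial cells (-0.25), -0.23 with B and plasma cells (-0.26) and -0.03 with neutrophils (-0.13). With eosinophils r was 0.25 without Ahrr-KO M3 and Ahr-KO F2, the 2 farthest samples, and 0.79 with genotype means taken off, and with fibroblasts and endothelial cells it was -0.00498 without Ahrr-KO M3 and F3 and -0.44 with genotype means taken off. Without the 2 farthest samples r was -0.67 with macrophages, -0.54 with dendritic cells, -0.50 with B and plasma cells and -0.23 with neutrophils. In WT alone (n = 6) only enterocytes (-0.48) and eosinophils (0.43) kept their sign. There r was 0.16 with macrophages, 0.33 with dendritic cells, 0.44 with fibroblasts and endothelial cells, 0.63 with B and plasma cells and 0.55 with neutrophils. The enterocyte list, with 8 of 8 genes read and Krt8 the most abundant, summed to 2979 to 12228 in WT (median 4836), 2214 to 5704 in Ahr-KO (median 4606) and 3556 to 16831 in Ahrr-KO (median 11582). The methods remove the epithelium before the cells are released, and the gate selects for CD11b and SiglecF. The part of enterocyte RNA in the class I values was not tested. These 14 relations are descriptions, since the genes averaged were picked with earlier results known. The lists of T cells and innate lymphocytes, mast cells and male germ cells had too few genes above the minimum for a mean.

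**Figure D4:**
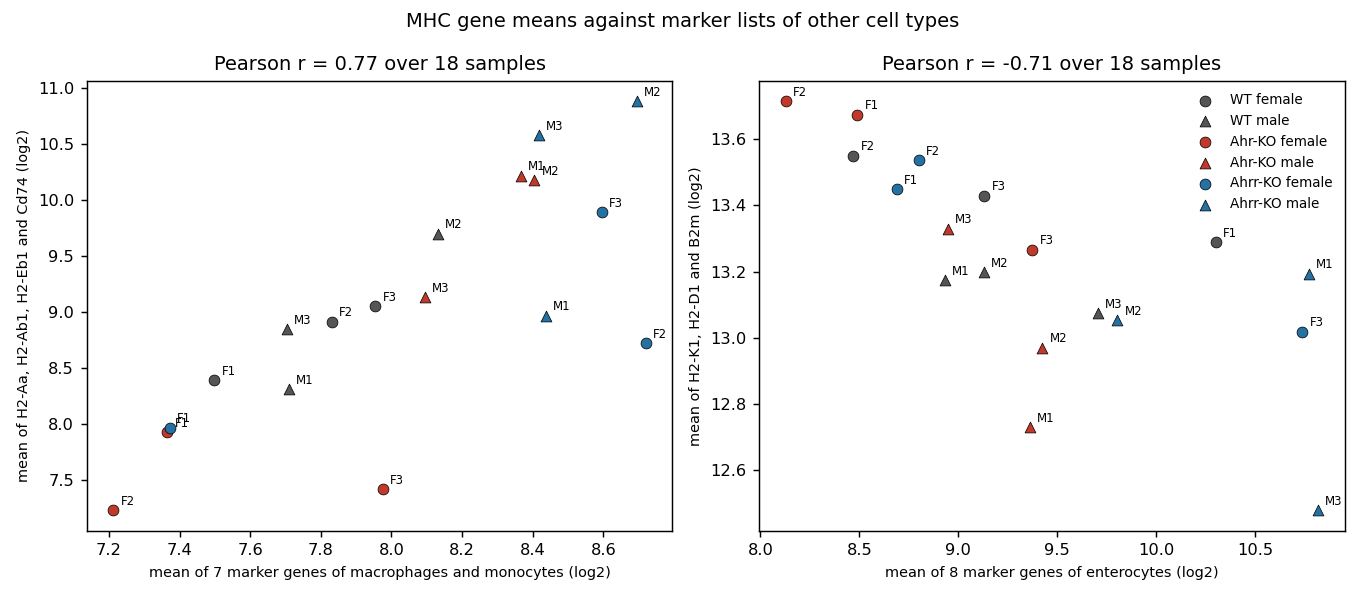
Each of the 18 samples by the mean of marker genes (x axis, log2) and the mean of MHC genes (y axis, log2), with class II against macrophage and monocyte markers on the left and class I against enterocyte markers on the right; colours are labelled genotypes, circles females and triangles males. Class II rises with the markers (r = 0.77), with Ahr-KO F3 and Ahrr-KO F2 below the trend, and class I falls with them (r = -0.71).

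Between the genes, levels were compared per kilobase of merged exons. In WT, B2m had 28167 ± 3684 normalized counts per kb (SD, n = 6), ahead of H2-K1 with 2519 ± 436 and H2-D1 with 2155 ± 235. Cd74 had 533 ± 179, H2-Ab1 172 ± 77.7, H2-Aa 129 ± 76.5, Tap1 108 (88.8 to 145) and H2-Eb1 86.2 ± 34.8, and BC051142 with 17.9 ± 3.83 and Ciita with 3.99 ± 1.64 were the lowest. In this order B2m and H2-K1, H2-D1 and Cd74, H2-Eb1 and BC051142, and BC051142 and Ciita had ranges that did not overlap, while the other neighbours did. In the samples labelled Ahr-KO, BC051142 was rank 7 of the 10 with 179 ± 57.8 per kb, a range of 105 to 236 that overlapped those of Cd74, H2-Aa, H2-Ab1, Tap1 and H2-Eb1, and in those labelled Ahrr-KO it was rank 9 with 11.7 ± 4.65.

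The wider machinery of antigen presentation was taken from 8 lists of 99 gene names, of which 87 had a row. Some names without a row are other names of genes with a row, such as Tsbp1 for BC051142 and March1 for Marchf1. With the 10 genes of the set left out, 58 were tested between Ahr-KO and WT and 8 passed limma's adjusted p of 0.05 (5 higher and 3 lower; 16 at an unadjusted p under 0.05), beside 8.84% of all genes. The median difference over the lists was -0.02, close to that over all genes tested, which was -0.004. Cd1d1, which presents lipids to natural killer T cells, was higher by 1.20 (SE 0.15, adjusted p = 5.37e-05), with every sample labelled Ahr-KO above every WT sample and a ratio of mean normalized counts of 3.12. Mr1, which presents vitamin B metabolites to MAIT cells, was higher by 0.77 (SE 0.16, adjusted p = 0.00581), in 6 of 6 samples above the WT median and without overlap. These were the 2 of 18 tested nonclassical class I genes that passed, and the median of that list was 0.04.

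In class II processing, Lgmn, a lysosomal endopeptidase, was higher by 0.57 (SE 0.11, adjusted p = 0.00394), Marchf1, a ubiquitin ligase that takes class II molecules off the surface, was higher by 0.31 (SE 0.09, adjusted p = 0.0414), and the cathepsin Ctsl differed by -0.48 (SE 0.12, adjusted p = 0.024). They were 3 of 6 genes tested in that list, whose median was -0.09. Each of the 8 called genes showed its direction in 6 of 6 samples labelled Ahr-KO against the WT median. H2-Oa was the 1 of 3 tested genes called among class II chains and exchange factors (median -0.12), where H2-DMa differed by -0.22 and H2-DMb1 by -0.12. H2-Oa was among these 3 only through its Ahr-KO values, so this count depends in part on the change itself. Ifngr2, a chain of the interferon gamma receptor, differed by -0.48 (SE 0.11, adjusted p = 0.0103), 1 of 4 in its list (median -0.04). None of 12 tested genes of class I peptide supply (median -0.15) and none of 11 MHC transcription factors (median 0.02) were called. Of the genes beside BC051142 in its list, 4 of 4 lay below 0 (median -0.36) and Btnl2, which reached the minimum mean only through WT, was called. Over the 18 samples the Btnl genes went with the mean of enterocyte markers, with r of 0.92 for Btnl1, 0.80 for Btnl2, 0.60 for Btnl4, 0.81 for Btnl5-ps and 0.92 for Btnl6. In the same comparison 7 of the 8 enterocyte markers lay below 0, from -0.64 for Epcam, with none called by limma, and their part in the Btnl values was not tested. Genes called without overlap between the groups were H2-Oa, Cd1d1, Mr1, Lgmn, Marchf1 and Ifngr2, where 4.51% of all genes were without overlap. Of the 10 genes of the set only BC051142 did not overlap. It was picked for this difference and is not set against that share.

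Cd1d1, Mr1, H2-Oa, Lgmn and Ifngr2 passed in all 12 fits without 1 library. Ctsl was not called without WT M2 or without Ahr-KO F1, F2 or M1 (adjusted p 0.0556 to 0.0689), and Marchf1 not without WT F1, F3, M2 or M3 or without any 1 of the 6 Ahr-KO libraries (0.0649 to 0.0966). Marchf1 was also lost without both F3 libraries (0.133), with no minimum mean, after centring, without covariate, with the replicate block and with all 18 samples in 1 fit (0.208), and Ctsl with all 18 samples in 1 fit (0.0971).

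**Figure D5:**
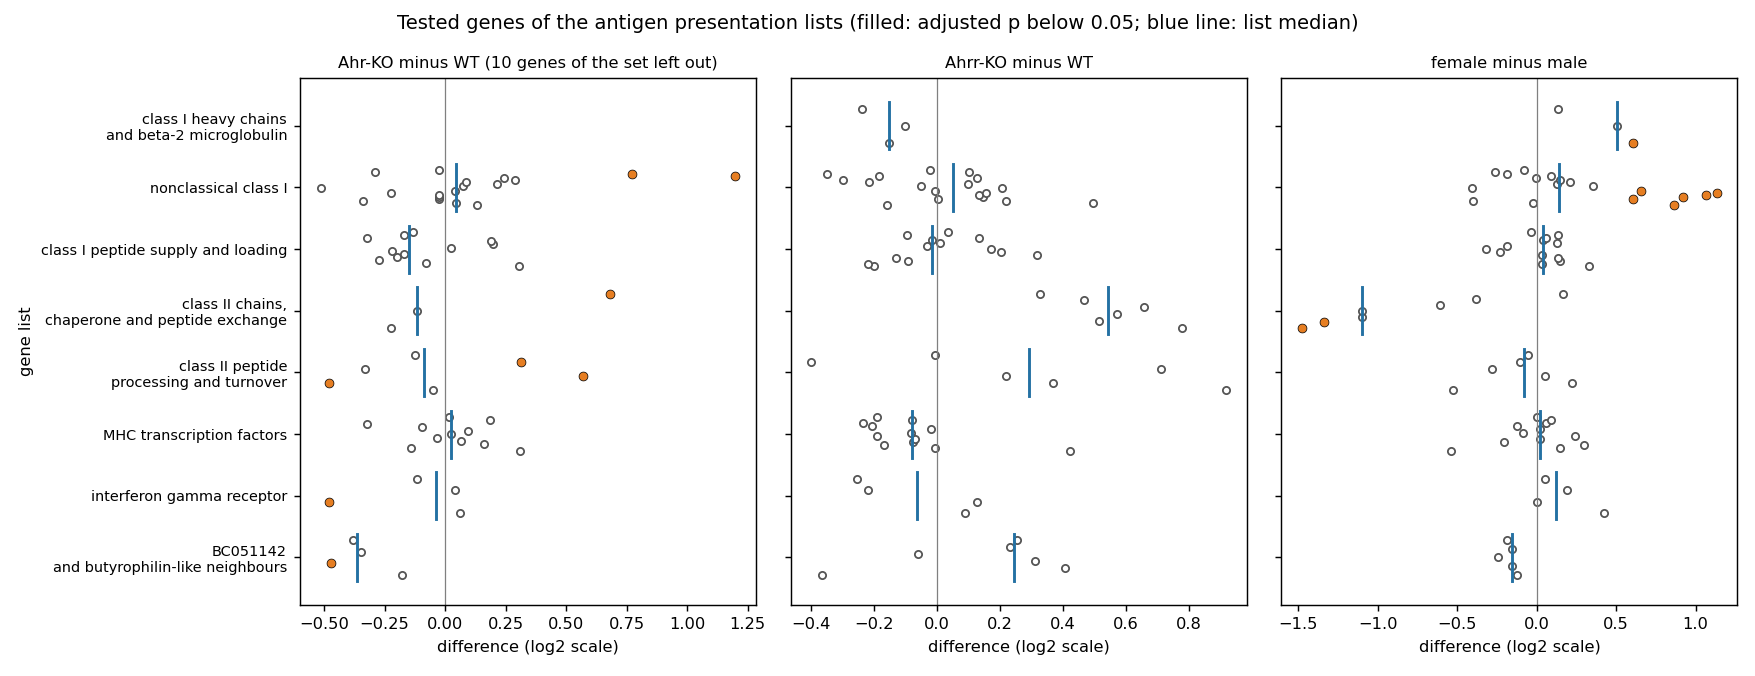
Differences (log2 scale, limma) of the tested genes of the 8 antigen presentation lists for Ahr-KO minus WT with the 10 genes of the set left out, Ahrr-KO minus WT, and female minus male; filled points have an adjusted p below 0.05 and blue lines are list medians. Called genes are 8, 0 and 9, and the class II list lies above 0 in Ahrr-KO (median 0.54, none called) and below 0 in females (median -1.10).

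In the samples labelled Ahrr-KO, none of the 10 genes passed limma's adjusted p of 0.05, beside 0.0779% of all genes (9 of 11546, all higher; 853 at an unadjusted p under 0.05), and none was without overlap, beside 0.459%. BC051142 differed from WT by -0.37 (SE 0.16, 95% confidence interval -0.71 to -0.02, adjusted p = 0.663) and was below the WT median in 6 of 6 samples. It was the 1 gene of the set at an unadjusted p under 0.05. The WT values used in this test were also among those that BC051142 was picked by. The class II genes lay higher with wide errors, by 0.78 for H2-Aa (SE 0.42, interval -0.13 to 1.68, adjusted p = 0.671), 0.52 for H2-Ab1 (SE 0.39), 0.57 for H2-Eb1 (SE 0.39), 0.66 for Cd74 (SE 0.39, in 5 of 6 samples) and 0.42 for Ciita (SE 0.28). These differences did not exceed the spread between samples, and were above 0 in every alternative run. By sex they were -0.14 in females and 1.17 in males for H2-Ab1, -0.07 and 1.38 for Cd74 and -0.05 and 0.90 for Ciita. For H2-Aa (0.34 and 1.21) and H2-Eb1 (0.15 and 0.99) they were above 0 in both sexes. Class I genes differed by -0.15 for H2-K1, -0.10 for H2-D1, -0.24 for B2m and -0.20 for Tap1, and the value of H2-D1 was 0.03 without Ahrr-KO M3.

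Over the lists, 0 of 68 genes were called by limma between Ahrr-KO and WT, beside 0.0779% of all genes, with 5 at an unadjusted p under 0.05. All 6 tested genes of class II chains and exchange factors lay above 0 (median 0.54, against 0.01 over all genes). The cathepsin Ctss, which trims the invariant chain, was higher by 0.92 (SE 0.29, adjusted p = 0.529), and was called when Ahrr-KO F1 was left out (adjusted p = 0.0319). The list of enterocyte markers had its highest sums in these samples (12228 at most in WT and 16831 in Ahrr-KO), and in the same comparison the macrophage marker C1qb had a mean of 212 normalized counts against 55.9 in WT (1.17, limma adjusted p = 0.415), and Adgre1, the most abundant of that list, had 6490 against 7943 (-0.35, adjusted p = 0.696), neither of them called. The list of B and plasma cells had a median sum of 3902 against 570 in WT, with Jchain at 1.90 (adjusted p = 0.603), not called. Of the fibroblast and endothelial markers, Dcn had a mean of 149 normalized counts against 13.0 in WT and Col3a1 175 against 33.8. Only Pecam1, the most abundant of that list, was lower (2640 against 3169), and none of these 3 was called. The part of all these markers in the class II values was not tested.

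Between the sexes, with genotype in the model, 3 of the 10 genes passed limma's adjusted p of 0.05, beside 3.06% of all genes (351 of 11468; 282 higher in females and 69 lower; 2145 at an unadjusted p under 0.05), and 8 of 10 had an unadjusted p under 0.05. H2-K1 was higher in females by 0.60 (SE 0.15, adjusted p = 0.0345), with 9 of 9 females above the median of the males. Among class II genes, H2-Aa differed by -1.48 (female minus male; SE 0.35, adjusted p = 0.0285) and H2-Ab1 by -1.34 (SE 0.35, adjusted p = 0.0426), with 8 and 9 of 9 females below the median of the males. These pooled values were smallest within WT, at -0.49 for H2-Aa and -0.13 for H2-Ab1, where the sexes overlapped. They were -2.58 and -2.43 within Ahr-KO and -1.36 and -1.44 within Ahrr-KO. The differences not called were 0.51 for H2-D1 (adjusted p = 0.0638), 0.33 for Tap1 (0.229), -1.10 for H2-Eb1 (0.0661), -1.10 for Cd74 (0.0829), -0.54 for Ciita (0.232), -0.13 for BC051142 (0.708) and 0.13 for B2m (0.672), whose sign turned with quantile normalization (-0.14). Over the same samples the mean of macrophage markers correlated with class II and that of enterocyte markers inversely with class I, and their part in the result was not tested.

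The calls of these 3 genes were near the threshold. H2-K1 was not called without WT F2 or M3, without Ahr-KO F1, F2, M1 or M2 or without Ahrr-KO F1, F2 or M3 (adjusted p 0.0603 to 0.0843), and H2-Aa not without WT M2, without any 1 of the 6 Ahr-KO libraries or without Ahrr-KO F1, F2, M2 or M3 (0.0511 to 0.0706). H2-Ab1 was not called without WT F2, M2 or M3, without any 1 of the 6 Ahr-KO libraries or without Ahrr-KO F1, F2, M2 or M3 (0.0562 to 0.101). Without both F3 libraries that stood apart, the adjusted p was 0.0287 for H2-K1, 0.0397 for H2-Aa and 0.0696 for H2-Ab1. All 3 were lost with no minimum mean, H2-Ab1 also without covariate, and H2-K1 also with quantile normalization (0.39, adjusted p = 0.0936).

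The other genes of the lists called between the sexes were nonclassical class I genes, 6 of 18 tested, beside 3.06% of all genes, and all 6 were higher in females. H2-Q7 was higher by 1.13 (SE 0.25, adjusted p = 0.0175), H2-Q6 by 1.07 (SE 0.27, adjusted p = 0.0345), H2-Q5 by 0.92 (SE 0.17, adjusted p = 0.00794) and H2-K2 by 0.87 (SE 0.18, adjusted p = 0.0124). H2-Q10 and H2-Q4 were higher by 0.66 and 0.61. These 6 were named after their values were seen. They are class I relatives of one another and of H2-K1, and how alike their sequences are was not measured. The identifier of the row named H2-Q7 is that of H2-Q9 in RefSeq. Reads of these 6 may be split among relatives, so the genes do not count as separate results. All but H2-Q6 passed in each of the 18 fits without 1 library. H2-Q6 was not called without WT F2 or M3, without Ahr-KO F1, F2, M1, M2 or M3 or without Ahrr-KO F1, F2 or M3 (adjusted p 0.051 to 0.0841) or with no minimum mean. Over all 8 lists, 9 of 68 genes were called between the sexes, beside 3.06% of all genes (7 higher and 2 lower in females; 23 at an unadjusted p under 0.05).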

How the data were processed

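The authors sequenced cDNA made with the NuGEN Ovation system as single-ended reads, aligned them to GRCm38 in the nf-core/rnaseq pipeline and analysed them by DESeq2. The submitters' processing notes name RSEM 1.3.0, STAR 2.5.2, DESeq2 and R 4.0.3. The authors deposited 22708 genes in 18 samples as log2 values after variance stabilization. Undone, the transformation left a whole count in 100% of cells (tolerance 0.0001), and these counts served for depth and normalized counts. Genes with a mean at least 1 above the lowest value (5.02) were fitted with limma 3.58.1 in R 4.3.3 (mean-variance trend, sex as covariate, genotype as covariate for sex, Benjamini-Hochberg adjusted p below 0.05); the fit was tested on simulated data. Of the genes, 22685 were matched to RefSeq (GRCm38.p6), and exon lengths came from GENCODE. Tables were read with pandas 2.3.3, numpy 2.4.6 and scipy 1.17.1 under Python 3.11.15, and figures were drawn with matplotlib 3.10.9.

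The members and lists were chosen with earlier results of these data known. Named genes are the 10 members, called genes of the pathway lists (at most 3 per list, direction and genotype comparison), the 3 nearest genes on each side of BC051142 and called genes within 500 kb, genes among the 5 most like each pattern, and the most abundant genes of marker lists. The marker lists were B cells and plasma cells, dendritic cells, macrophages and monocytes, T cells and innate lymphocytes, enterocytes, fibroblasts and endothelial cells, neutrophils, mast cells, male germ cells and eosinophils. Alternatives were quantile normalization, centring each sample on its median, a minimum mean raised to 3 above the lowest value or left out, log2 of the normalized count plus 1 or plus 8, no covariate, all 18 samples in the fit, a replicate block, leaving out each sample and, chosen after seeing the data, leaving out both F3 libraries. WT and Ahr-KO samples are separate mice according to the paper.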

Additional observations from a re-analysis of the deposited data

Results flagged for a closer look

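In 36 sets of 6 samples (the 10 genes, the total count and the genes without a read, in 3 groups), a sample was far from the others in 2, and chance gives about 1 in 20 sets. WT F3 had 2464 genes without a read and Ahr-KO F3 had 3014, each far below the other 5 libraries of its group. For the 10 genes, 0 of 30 sets had such a sample. Without both libraries the Ahr-KO minus WT difference of BC051142 was 2.73, against 2.56 with all samples.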

How the results depend on the processing

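Between Ahr-KO and WT, 1003 genes were called, and 553 with all 18 samples in 1 fit, 586 without both F3 libraries and 623 to 1124 when 1 library was left out. The lowest count was without Ahr-KO F1, and 677 and 685 were called without Ahr-KO F2 and M3. 1 library thus moved this count by over 1.5 times only where Ahr-KO F1 was left out. For BC051142 the difference was 3.26 on log2 of the normalized count plus 1 and 3.14 plus 8. Of the pathway genes, 8 were called, 3 with the minimum at 3, 5 with all 18 samples, and 5 to 8 without 1 library. Between Ahrr-KO and WT, 9 genes were called, 4 with no minimum, 5 with the minimum at 3, 4 after centring, 5 after quantile normalization, 4 on log2 of the count plus 1, 14 with all 18 samples, 4 with the replicate block, 4 without WT F1, F2, M2 or M3 or Ahrr-KO F2, M2 or M3, and 4 to 25 without 1 library (25 without Ahrr-KO F1). Pathway genes were 0, and 0 to 1 without 1 library; H2-D1 was -0.19 to 0.03 without 1 library (0.0278 without Ahrr-KO M3). Between the sexes 351 genes were called, 163 with no minimum, 211 without covariate and 142 to 733 without 1 library, the extremes without Ahr-KO M1 and WT F1. B2m turned to -0.14 with quantile normalization.

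The labels do not say that replicate numbers pair the samples. Deviations of same-numbered samples correlated at -0.29 to 0.57 between WT and Ahr-KO, -0.62 to 0.47 between WT and Ahrr-KO and 0.02 to 0.52 between Ahr-KO and Ahrr-KO, and 3, 2 and 1 of 6 samples correlated best with their own number. With the replicate block 918 genes were called for Ahr-KO. Of the Ahr-KO values of the 10 genes, which had no test, 215 stayed within 1 SD of the main value and 3 did not, and sign changes near 0 are among the 215. The other values kept direction and side of the threshold in 207 and 209 cases for Ahrr-KO and sex, while 39 sex values lost their call and 8 gained one. BC051142, H2-Eb1 and Ciita gave no value where the minimum at 3 left them out. The causes were not tested. Counts of 36 to 68 reads for BC051142 in WT and 18 to 49 for Ciita limit their precision.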

Other observations

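Between Ahr-KO and WT, where 8.84% of all genes tested were called by limma, 3 of 5 tested neutrophil genes were called. Retnlg and Cxcr2 were higher by 1.21 and 0.65 (adjusted p = 0.00453 and 0.0198) and Mmp8 differed by -0.92 (adjusted p = 0.00677), while Ly6g, which defines neutrophils, had a mean of 1.48 normalized counts and was at 0 in 13 of 18 samples. Of 6 tested eosinophil genes, Prg2, the major basic protein of the granules, differed most, by 2.30, with means of 76.9 normalized counts in WT, 625 in the samples labelled Ahr-KO and 102 in those labelled Ahrr-KO (adjusted p = 3.47e-07 for Ahr-KO), and Alox15 was higher by 0.58 (adjusted p = 0.023). Csf1r was called among macrophage genes (1 of 6) and Pecam1 among stromal and endothelial genes (1 of 3). None of 3 genes of B and plasma cells, 3 of dendritic cells, 8 of enterocytes, 1 of T cells and 1 of mast cells was called in that comparison. Between Ahrr-KO and WT, 2 of 5 tested neutrophil genes, S100a8 and S100a9, were called (2.06 and 2.10 higher), beside 0.0779% of all genes. These genes were named after their values were seen.

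Group sums of further lists had medians of 36178, 84171 and 35683 normalized counts for neutrophils in WT, Ahr-KO and Ahrr-KO, led by Retnlg, and of 53516, 61307 and 47872 for eosinophils, led by Alox15. They were 3369, 2145 and 3248 for fibroblasts and endothelial cells, led by Pecam1 and 83.9, 109 and 191 for mast cells, led by Kit.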
